A study of Mus musculus with 8 samples.

Results

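Hhex, Cer1, Lefty1, Dkk1, Lhx1 and Hesx1, genes used as markers of the anterior visceral endoderm (AVE), were followed in RNA-seq libraries of mouse epiblast in which ERK signalling was induced. The 6 genes were taken by symbol from the 52636 Ensembl identifiers of the deposited count table, and all 6 passed the expression filter that left 18321 genes to test. The 8 libraries came from embryos at embryonic day 5.5 with the genotype Sox2Cre;CRAFR26. Sox2Cre recombines in the epiblast, and CRAFR26 is a construct with a cRAF protein that switches on ERK, the last kinase of the MAPK cascade, when 4-hydroxytamoxifen (4OHT) is given. All groups carried both transgenes, and no group lacked the construct. Each of 2 clones of the line, clone 4 and clone 8, gave 2 vehicle libraries and 2 4OHT libraries. The 4OHT groups were cultured in IVC2 medium with 250 nM 4OHT for 4 h. The vehicle groups received ethanol. Their treatment label gives 4 h, while their titles and the design text give 0 h, so time in culture may differ between the conditions as well. Each library used 7 ng of RNA of 10 pooled epiblasts, from which the extraembryonic layers had been cut away by hand.

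The AVE is a group of visceral endoderm cells that first forms at the distal tip of the embryo and then moves to its future anterior side. It secretes inhibitors of Nodal and Wnt signals and so keeps primitive streak genes off in the epiblast beside it. Cer1 and Lefty1 encode secreted Nodal inhibitors, and Dkk1 encodes a secreted Wnt inhibitor that binds the LRP co-receptors. Hhex, Lhx1 and Hesx1 encode homeodomain transcription factors. Sox2Cre is active in the epiblast lineage, so recombination of the construct is not expected in the visceral endoderm itself. The AVE lies outside the tissue that the dissection was meant to keep.

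In the main fits none of the 6 genes passed edgeR's test in either clone, in both clones together or in the difference between the clones. Of all tested genes, 0.0382% passed in clone 4, 16.6% in clone 8, 0.00546% over both clones and 2.83% in the difference. In the difference, DESeq2 called Hesx1 and Hhex, and edgeR without the expression filter called all 6. Both settings also called more of all genes, as given below. In clone 4, 5 of the 6 were higher in both 4OHT libraries than in both vehicle libraries, by 0.87 to 1.47 on the log2 scale. The same order held for 23.7% of all tested genes. In clone 8 the fitted values of all 6 were below 0, from -1.17 to -0.22, as were those of 46.3% of all tested genes. Replicates of the same group differed in these genes by more than was typical of the other genes tested. Markers of the visceral endoderm as a whole were lowest in the same 2 libraries as most of the 6 genes.

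Total counts were 33.3 to 38.0 M (M, mega) in vehicle and 56.4 to 72.5 M in 4OHT libraries, so depth and condition cannot be told apart. Levels are given as CPM, counts per mega of the library total after TMM scaling. Replicates are separate libraries per the labels, but nothing says that their embryos came from different litters, so p-values measure the spread between these libraries. In bulk tissue, fewer cells of a type and less RNA per cell cannot be told apart. The epiblast label was checked with 10 markers, whose summed level was 4914 to 5370 CPM in vehicle and 4228 to 4732 CPM in 4OHT libraries. Other tissues were present as well. The 18 visceral endoderm markers summed to 1023 to 3920 CPM, the 14 extraembryonic ectoderm markers to 197 to 823 CPM and the 7 parietal endoderm markers to 197 to 353 CPM, and no gene of these lists was at 0 in any library. Summed levels of the 8 ERK readout genes were 557 to 904 CPM in vehicle and 974 to 1446 CPM in 4OHT libraries.

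Where reads of the 6 genes could be shared with other genes was read from the GRCm38 annotation and transcripts. Hhex (ENSMUSG00000024986) lies at chr19:37434810-37440731 on the plus strand, Cer1 (ENSMUSG00000038192) at chr4:82881751-82885148 on the minus strand, and Lefty1 (ENSMUSG00000038793) at chr1:180935022-180938400 on the plus strand. Dkk1 (ENSMUSG00000024868) lies at chr19:30545863-30549665 on the minus strand, Lhx1 (ENSMUSG00000018698) at chr11:84518284-84525535 on the minus strand, and Hesx1 (ENSMUSG00000040726) at chr14:26994416-27002329 on the plus strand. No annotated gene overlaps any of the 6, although the antisense gene Lhx1os starts 125 bases from Lhx1 and Gm38345 lies 154 bases from Hhex on the opposite strand. Of the 50-base stretches of Lefty1 transcripts, 17.9% also occur in its neighbour Lefty2, which encodes a related Nodal inhibitor and lies at chr1:180893108-180899103. The figure was 1.78% for Cer1, 1.18% for Dkk1 and 0.214% for Hhex against other genes, and 0 for Lhx1 and Hesx1. The coding sequences of Lefty1 and Lefty2, each of 1104 bases, are identical at 91.8% of positions.

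Promoter sequences from RefSeq (GRCm38.p6) were found for 5 of the 6 genes; Lefty1 had no entry. Those of Cer1 and Dkk1, a Nodal inhibitor and a Wnt inhibitor, are printed from 250 bases before the start site up to it, 5′ to 3′ on the minus strand, as chr4:82885152-82885401 and chr19:30549497-30549746. Capitals mark the letters that matched a searched motif on either strand.

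Cer1: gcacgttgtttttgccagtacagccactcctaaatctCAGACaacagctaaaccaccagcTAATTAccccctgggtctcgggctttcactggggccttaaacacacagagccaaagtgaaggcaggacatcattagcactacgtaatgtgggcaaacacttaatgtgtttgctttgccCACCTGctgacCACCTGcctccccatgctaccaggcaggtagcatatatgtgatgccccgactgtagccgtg

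Dkk1: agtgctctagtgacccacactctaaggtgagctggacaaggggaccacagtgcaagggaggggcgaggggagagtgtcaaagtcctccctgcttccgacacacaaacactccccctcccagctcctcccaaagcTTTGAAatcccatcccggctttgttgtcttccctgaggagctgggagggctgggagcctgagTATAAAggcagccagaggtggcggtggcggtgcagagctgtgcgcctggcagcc

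Of 32851 promoters of 300 bases, which include 50 bases after the start, 49.6% held the SMAD motif CAGAC, which matched once in the promoters of Cer1, Dkk1 and Lhx1. For Dkk1 that match lay after the start, outside the printed stretch. The homeodomain motif TAATTA, found in 5.29% of promoters, matched in Cer1, and so did the E-box CACCTG (20.2%), which matched at 2 places. The TCF and LEF motif TTTGAA (17.9%) matched in Dkk1, and the TATA box TATAAA (13.6%) matched in Dkk1 and Hesx1. For Hesx1 that match lay after the start and on the opposite strand. The Hesx1 promoter entry, chr14:27000112-27000411, lies inside the annotated span of the gene. Of the printed Dkk1 stretch, chr19:30549497-30549665, which holds both marked motifs, also lies inside the annotated span of Dkk1. The forkhead motif TGTTTAC (3.65%), the OTX and GSC motif TAATCC (7.06%) and the GATA motif AGATAA (11.2%) matched in none of the 5. The motifs were chosen after these promoters had been seen. A shorter forkhead motif, GTTTGC, had been searched first, matched in Cer1 and was then dropped. A match describes letters and not a bound site.

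Levels of different genes were compared per kilobase of the longest coding transcript. Lefty1 was the most abundant, with a median of 45.3 CPM per kb over the 8 libraries (range 23.1 to 70.9). Cer1 followed at 15.7 (5.78 to 19.5), then Lhx1 at 9.76 (1.9 to 13.6) and Dkk1 at 9.45 (3.12 to 17.3). Hhex at 4 CPM per kb (2.16 to 6.77) and Hesx1 at 3.78 (1.46 to 7.71) were lowest. The lowest value of Lefty1 lay above the highest of every other gene of the 6. The ranges of neighbours below Lefty1 overlapped. Library by library, Cer1 was above Lhx1 in 8 of 8 and Dkk1 above Hhex in 8 of 8, while Lhx1 was above Dkk1 in 4 of 8 and Hhex above Hesx1 in 4 of 8.

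**Figure D1:**
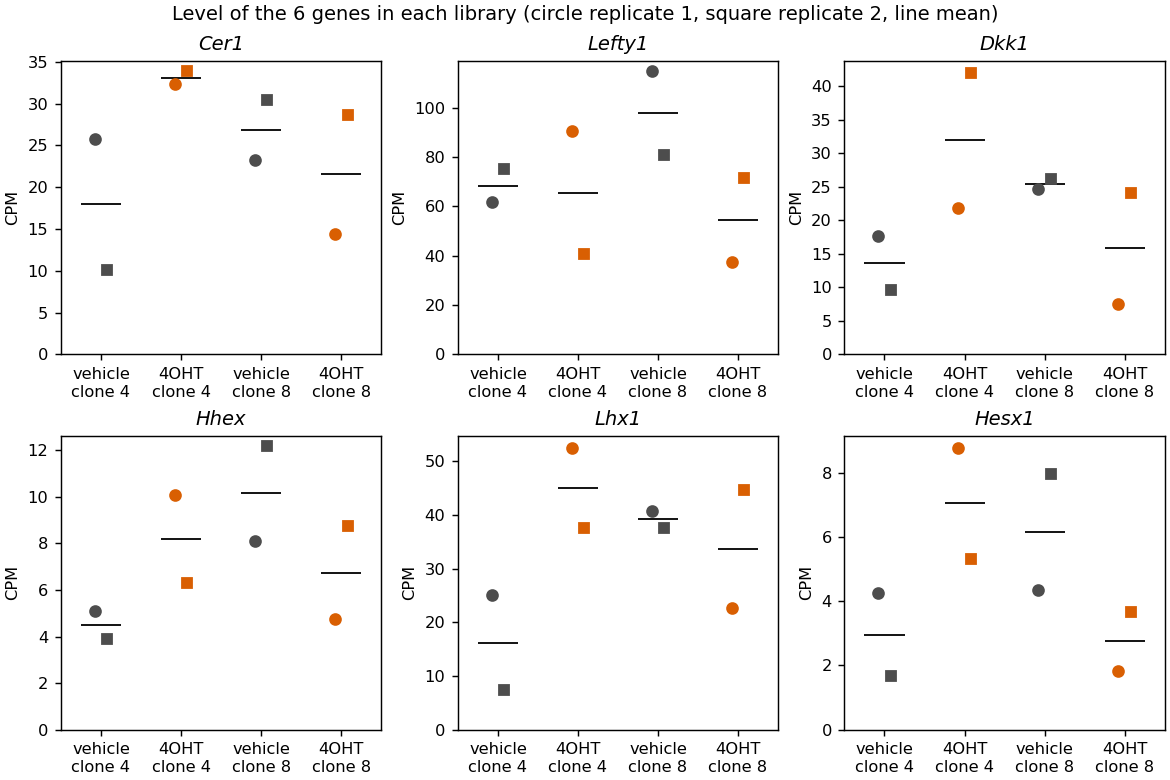
Level of each of the 6 genes in CPM, by group of clone and condition; the circle is replicate 1, the square replicate 2 and the line their mean, and every axis starts at 0. In clone 4 the 4OHT libraries lie above the vehicle libraries for 5 of the 6 genes, as for 23.7% of all tested genes. Lefty1 spans 40.7 to 90.5 CPM within the 4OHT group of clone 4.

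Of the secreted Nodal inhibitors, Cer1 stood at 25.8 and 10.1 CPM in vehicle clone 4, at 32.3 and 33.9 CPM in 4OHT clone 4, at 23.3 and 30.4 CPM in vehicle clone 8 and at 14.4 and 28.7 CPM in 4OHT clone 8, in the order replicate 1, replicate 2. The groups did not overlap in clone 4 but did in clone 8. The low libraries were vehicle clone 4 replicate 2 and 4OHT clone 8 replicate 1. The mean of clone 4 was 17.9 ± 11.1 CPM in vehicle and 33.1 ± 1.18 CPM in 4OHT libraries (SD, n = 2 each). The log2 fold change was 0.88 (SE 0.42, 95% interval -0.07 to 1.84, adjusted p 0.551 by edgeR's quasi-likelihood test). The mean of clone 8 was 26.9 ± 5.02 CPM in vehicle and 21.6 ± 10.1 CPM in 4OHT libraries (SD, n = 2 each), and the change was -0.32 (SE 0.42, interval -1.27 to 0.63, edgeR adjusted p 0.642).

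Lefty1 stood at 61.8 and 75.0 CPM in vehicle clone 4, 90.5 and 40.7 CPM in 4OHT clone 4, 115 and 80.8 CPM in vehicle clone 8, and 37.5 and 71.7 CPM in 4OHT clone 8. Its 4OHT libraries of clone 4 lay on either side of the vehicle libraries, whereas in clone 8 both lay below them. Its fitted change was -0.06 (SE 0.38, interval -0.93 to 0.80, edgeR adjusted p 0.982) in clone 4 and -0.84 (SE 0.39, interval -1.71 to 0.03, adjusted p 0.163) in clone 8. Lefty2, named here because of the shared sequence, stood at 29.1, 17.9, 29.1 and 19.2 CPM in vehicle and at 10.7, 8.45, 16.4 and 6.64 CPM in 4OHT libraries, clone 4 before clone 8. The 2 conditions did not overlap, as was the case for 5.58% of tested genes in that direction, and the log2 fold change over both clones was -1.18 (SE 0.29) with an edgeR adjusted p of 0.131. Lefty1 overlapped between the conditions.

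The Wnt inhibitor Dkk1 stood at 17.6 and 9.67 CPM in vehicle clone 4, 21.8 and 42.0 CPM in 4OHT clone 4, 24.6 and 26.2 CPM in vehicle clone 8, and 7.57 and 24.1 CPM in 4OHT clone 8. Both 4OHT libraries were above both vehicle libraries in clone 4 and below them in clone 8, where replicate 2 lay just under the lower vehicle library. Dkk1 had a log2 fold change of 1.22 (SE 0.51, interval 0.07 to 2.37, edgeR adjusted p 0.476) in clone 4 and -0.68 (SE 0.51, interval -1.82 to 0.46, adjusted p 0.382) in clone 8. Without 4OHT clone 8 replicate 2, the value in clone 8 was -1.75. Without 4OHT clone 8 replicate 1 it was -0.08.

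Among the transcription factors, Hhex, which marks the distal and anterior visceral endoderm early, stood at 5.08 and 3.90 CPM in vehicle clone 4 and at 10.1 and 6.31 CPM in 4OHT clone 4. In clone 8 it stood at 8.11 and 12.2 CPM in vehicle and at 4.76 and 8.74 CPM in 4OHT libraries. The groups were apart in clone 4 and overlapped in clone 8. Its log2 fold change was 0.87 (SE 0.37, interval 0.03 to 1.70, edgeR adjusted p 0.482) in clone 4 and -0.59 (SE 0.37, interval -1.41 to 0.23, adjusted p 0.296) in clone 8.

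Lhx1, a LIM homeodomain factor needed for head formation, stood at 25.1 and 7.32 CPM in vehicle clone 4 and at 52.4 and 37.5 CPM in 4OHT clone 4. In clone 8 the values were 40.7 and 37.6 CPM in vehicle and 22.6 and 44.6 CPM in 4OHT libraries. Vehicle clone 4 replicate 2 was the lowest library by far, and the 4OHT libraries of clone 8 lay on either side of its vehicle libraries. For Lhx1 the log2 fold change was 1.47 (SE 0.50, interval 0.34 to 2.59, edgeR adjusted p 0.347) in clone 4, the highest of the 6 genes there, and -0.22 (SE 0.49, interval -1.32 to 0.87, adjusted p 0.786) in clone 8.

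Hesx1, a repressor of the paired-like homeodomain class with a role in the forebrain, had the fewest counts of the 6, with 56 counts in vehicle clone 4 replicate 2 and 491 in 4OHT clone 4 replicate 1. Its levels were 4.25 and 1.67 CPM in vehicle clone 4, 8.80 and 5.32 CPM in 4OHT clone 4, 4.37 and 7.98 CPM in vehicle clone 8, and 1.83 and 3.67 CPM in 4OHT clone 8. The 4OHT libraries were above the vehicle libraries in clone 4 and below them in clone 8. Its log2 fold change was 1.25 (SE 0.52, interval 0.07 to 2.43, edgeR adjusted p 0.476) in clone 4 and -1.17 (SE 0.52, interval -2.34 to 0.00, adjusted p 0.152) in clone 8.

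Counted over the 6 genes, the comparison within clone 4 called 0, against 0.0382% of all tested genes, and 4 (Dkk1, Hesx1, Hhex and Lhx1) had an unadjusted p under 0.05, against 9.9%. The 4OHT libraries lay above the vehicle libraries for 5 of the 6, and 23.7% of tested genes did the same; they lay below for 0 of the 6, against 23.8%. The log2 fold change was above 0 for 5 of the 6, against 49.3% of tested genes. Within clone 8, 0 were called where 16.6% of tested genes were, and 0 had an unadjusted p under 0.05 where 33.2% of genes did. The 4OHT libraries lay below the vehicle libraries for 3 of the 6 (Dkk1, Hesx1 and Lefty1), as for 28.3% of tested genes, and above them for 0, against 31.7%. All 6 log2 fold changes were below 0, against 46.3% of those of tested genes. With DESeq2, 0 of the 6 were called within either clone. Without the expression filter, Cer1, Dkk1, Hesx1 and Lhx1 were called higher in clone 4, and Dkk1, Hesx1 and Lefty1 lower in clone 8. In clone 4 that setting also called more of all genes, as given below. For clone 8 the share of all genes that it called is not given here, while the main fit called 16.6%.

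Over both clones together, log2 fold changes were 0.13 (SE 0.36) for Hhex, 0.28 (SE 0.36) for Cer1, -0.45 (SE 0.30) for Lefty1, 0.27 (SE 0.49) for Dkk1, 0.62 (SE 0.45) for Lhx1 and 0.04 (SE 0.57) for Hesx1. Their adjusted p-values in edgeR's quasi-likelihood test ran from 0.464 to 0.981. The test called 0 of the 6, against 0.00546% of all tested genes, and 0 had an unadjusted p under 0.05, against 16.9%; DESeq2 also called 0. Without the expression filter Lhx1 was called, at 0.64 with an edgeR adjusted p of 0.0168, and more of all genes were called as well, as given below. The 4 vehicle and 4 4OHT libraries overlapped for each of the 6 genes; among tested genes, 3.42% were higher and 5.58% lower with no overlap. The 95% interval was -1.22 to 1.30 for Hesx1, -0.39 to 1.63 for Lhx1 and -1.12 to 0.22 for Lefty1.

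**Figure D2:**
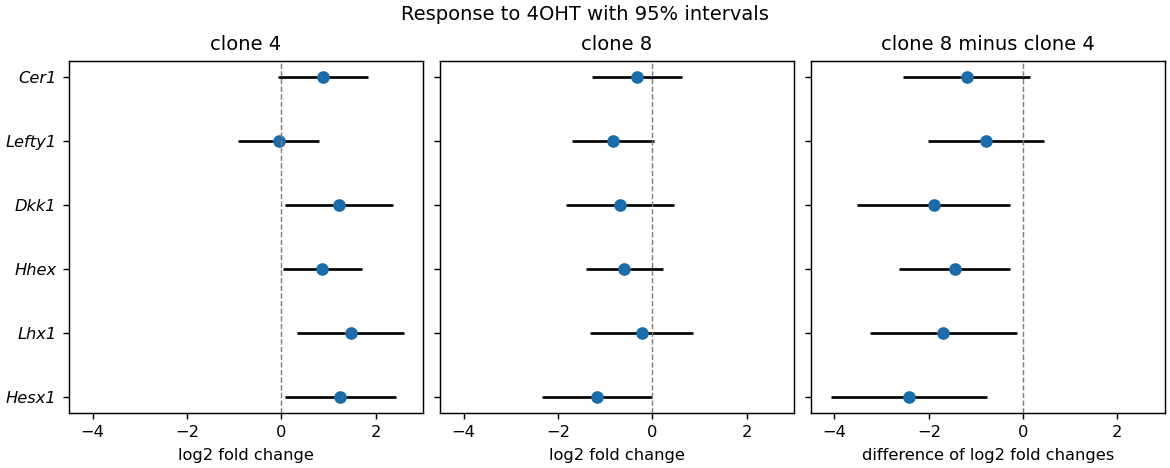
Log2 fold change of 4OHT against vehicle for each of the 6 genes in clone 4 and clone 8, and the difference of the 2 responses; points are edgeR estimates and bars their 95% intervals. In clone 4, 5 points lie above 0, against 49.3% of tested genes. In clone 8 all 6 lie below 0, against 46.3%, and all 6 intervals there include 0.

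The difference between the clones was tested in its own right. The response of clone 8 was lower than that of clone 4 by values of -1.45 (SE 0.52) for Hhex, -1.20 (SE 0.60) for Cer1, -0.78 (SE 0.54) for Lefty1, -1.90 (SE 0.72) for Dkk1, -1.69 (SE 0.69) for Lhx1 and -2.42 (SE 0.74) for Hesx1 on the log2 scale. The edgeR adjusted p-values were 0.107 to 0.423, so 0 of the 6 were called, where 2.83% of tested genes were. At an unadjusted p under 0.05 there were 4, Dkk1, Hesx1, Hhex and Lhx1, against 22.7% of tested genes. All 6 differences were below 0, as were 47.5% of those of all tested genes. DESeq2 called Hesx1 (-2.43, adjusted p 0.00957) and Hhex (-1.47, adjusted p 0.0458), and without the expression filter all 6 were called. Both settings also called more of all genes than the main fit did, as given below. Without 4OHT clone 8 replicate 2, the difference for Dkk1 was -2.97.

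Replicates of a group differed widely in these genes. Between the vehicle replicates of clone 4 the median absolute log2 difference of the 6 was 1.10, where that of all tested genes was 0.23. It was 0.45 against 0.30 in vehicle clone 8, 0.70 against 0.24 in 4OHT clone 4 and 0.98 against 0.34 in 4OHT clone 8. The lowest library was vehicle clone 4 replicate 2 for Hhex, Cer1, Lhx1 and Hesx1 and 4OHT clone 8 replicate 1 for Lefty1 and Dkk1. Both libraries also had the lowest mean log2 CPM of the visceral endoderm list and of the other AVE genes list.

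**Figure D3:**
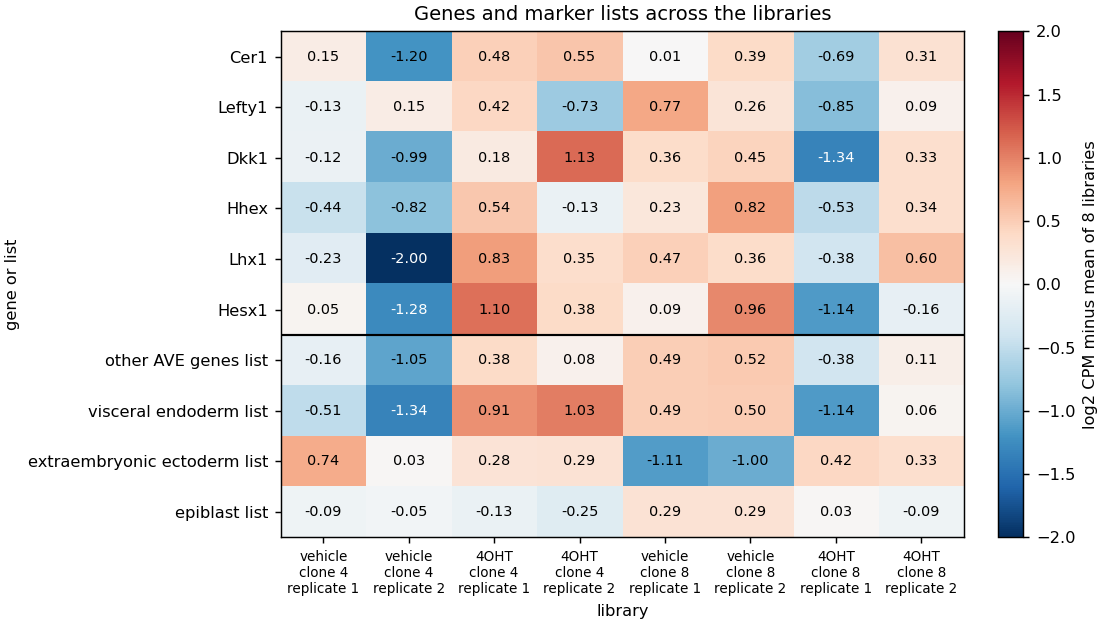
Log2 CPM of each of the 6 genes in each library minus its mean over the 8 libraries, with the mean of 4 marker lists below the line on the same scale; blue is below and red above the mean. Vehicle clone 4 replicate 2 and 4OHT clone 8 replicate 1 are blue in the rows of most of the 6 genes and of the visceral endoderm list.

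The visceral endoderm list holds 18 genes of the whole layer, such as Dab2 and Amn, which act in endocytosis, Apoa1, a lipoprotein gene, and the homeobox gene Rhox5. Its summed level was 1023 to 1493 CPM in vehicle clone 4, 3495 to 3920 CPM in 4OHT clone 4, 2408 to 2409 CPM in vehicle clone 8 and 1059 to 1906 CPM in 4OHT clone 8. Within clone 4 the median log2 fold change was 1.92, beside 1.05 for the 6 AVE genes and 0.00 for all tested genes. There edgeR called 0 of 18 in the fit of all 8 libraries, against 0.0382% of tested genes. At an unadjusted p under 0.05, 17 were higher, against 9.9% of tested genes in either direction. DESeq2 called 10 higher, and a fit of the 4 libraries of clone 4 alone called 12. Leaving out single libraries changed the calls of the list and those of all genes, as given below. DESeq2 and the fit of clone 4 alone also called more of all genes than the fit of all 8 libraries did, as given below. In the fit of all 8 libraries Dab2 had a value of 2.20 (adjusted p 0.0942) and Amn 2.08 (adjusted p 0.0658) in edgeR's test. Within clone 8, 6 of 18 fell and 1 rose, where 8.6% of tested genes fell and 8% rose. A fit of the 4 libraries of clone 8 alone called 0 of 18, and also 0 of all tested genes. In the fit of all 8 libraries the median was -1.09, beside -0.64 for the AVE genes and 0.07 for all genes. Without 4OHT clone 8 replicate 1 these medians were -0.46 for the list and -0.15 for the AVE genes, and without 4OHT clone 8 replicate 2 they were -2.01 and -1.24. Apoa1 fell by 1.56 (SE 0.40, edgeR adjusted p 0.0308) and Amn by 1.25 (SE 0.33, adjusted p 0.0343), while Rhox5 rose by 0.58 (SE 0.13, adjusted p 0.0204). The number of the list that fell changed when single libraries of clone 8 were left out. The number of all genes called there changed as well, as given below. In the difference between clones 10 of 18 were called lower, against 1.75% of tested genes, with a median of -3.01, beside -1.57 for the AVE genes. That count changed when single libraries were left out, as did the number of all genes called in this comparison, as given below.

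Set against that list, the AVE genes did not keep a fixed ratio to it. The mean log2 CPM of the 6 minus that of the list was -1.02 and -1.10 in vehicle clone 4 and -1.73 and -2.19 in 4OHT clone 4. In clone 8 it was -1.58 and -1.37 in vehicle and -1.10 and -1.23 in 4OHT libraries. This mean was lower with 4OHT in clone 4 and higher in clone 8. Gene by gene, only Cer1 and Lhx1 minus the list were higher in both 4OHT libraries than in both vehicle libraries of clone 8. Hhex, Lefty1, Dkk1 and Hesx1 overlapped there, with Hesx1 at -3.86 and -3.01 in vehicle and -3.47 and -3.69 in 4OHT libraries. In clone 4 Lhx1 and Hesx1 overlapped, and the other genes were lower in both 4OHT libraries. With the list's mean level as a covariate, the differences between clones of all 6 genes turned positive, at 0.22 to 1.76 (edgeR adjusted p 0.415 to 0.961), and the values in clone 4 turned or stayed negative, at -1.26 to -0.26. In clone 8 the values of 3 genes were then above 0 and those of 3 below, from -0.53 to 0.93. With this covariate 0 of the 6 were called in any comparison. The part that the amount of visceral endoderm RNA has in these responses was not tested further, since the list moved with clone and condition.

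The 9 other AVE genes were read as a second list. Its most abundant members were Otx2, a homeobox gene that the epiblast also expresses, the angiomotin gene Amot, the T-box gene Eomes and the Wnt inhibitor gene Sfrp1. Within clone 4 edgeR and DESeq2 called 0 of 9, and 4 had an unadjusted p under 0.05 in edgeR (3 higher, 1 lower), against 9.9% of tested genes. There 8 had values above 0, against 49.3% of tested genes, and the median was 0.62. Within clone 8, 2 had values above 0, and the median was -0.50. There edgeR called 0 higher and 1 lower, where 8% of tested genes rose and 8.6% fell. That call was lost without vehicle clone 8 replicate 1, and the median was -0.16 without 4OHT clone 8 replicate 1 and -0.96 without 4OHT clone 8 replicate 2. The gene that fell, the Wnt receptor gene Fzd8, was named after its values were seen (-2.53, SE 0.52, edgeR adjusted p 0.016). Its level was low, with a mean of 0.985 CPM over the 8 libraries. In clone 8 it had 96 and 62 counts in vehicle and 29 and 19 in 4OHT libraries. Amot had a value of 1.33 (SE 0.41, adjusted p 0.3) in clone 4 and -0.40 (SE 0.41, adjusted p 0.535) in clone 8, whereas Otx2 had -0.28 (adjusted p 0.465) and -0.38 (adjusted p 0.0505). The value of Eomes was 0.39 (adjusted p 0.577) in clone 4 and 0.25 (adjusted p 0.405) in clone 8, and that of Sfrp1 0.53 (adjusted p 0.659) and -0.50 (adjusted p 0.298). In the difference between clones all 9 values were below 0, as were 47.5% of those of all tested genes, with a median of -1.13. In that comparison 22.7% of tested genes had an unadjusted p under 0.05 in edgeR. There edgeR called 0 of 9, with 5 lower at an unadjusted p under 0.05, while DESeq2 called 1 lower and edgeR called 2 lower without either 4OHT library of clone 8.

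The signals that the secreted factors act on were read from 14 genes of the Nodal pathway and 15 of the Wnt pathway. In clone 4 edgeR called 0 of each, with medians of 0.04 and 0.15. At an unadjusted p under 0.05 there 1 Nodal gene was higher and 1 lower, and 1 Wnt gene was higher. DESeq2 called the same numbers. Of all tested genes, 9.9% had such an unadjusted p in edgeR in either direction. In clone 8, 2 Nodal pathway genes rose and 4 fell (median -0.50), and 2 Wnt pathway genes rose and 2 fell (median -0.04), where 8% of tested genes rose and 8.6% fell. Of the most abundant members, Smad4, the common SMAD of the pathway, fell by 1.38 (SE 0.18, edgeR adjusted p 0.00782) and Tcf7l1, a repressor at Wnt targets, fell by 1.25 (SE 0.17, adjusted p 0.00834) in clone 8. The Nodal co-receptor gene Tdgf1 (0.11, SE 0.26, adjusted p 0.794), the Nodal cofactor gene Foxh1 (-0.58, SE 0.18, adjusted p 0.0527) and Smad2 (0.17, SE 0.19, adjusted p 0.568) did not pass there. Among Wnt genes, the values in clone 8 were -0.04 (adjusted p 0.893) for Ctnnb1, the gene of beta-catenin, 0.02 (adjusted p 0.944) for Lef1, a transcription factor of the pathway, and -0.02 (adjusted p 0.968) for Wls, which carries Wnt proteins to the membrane. Without vehicle clone 8 replicate 1, edgeR called 0 of the Nodal and 0 of the Wnt genes in clone 8. In the difference between clones, 1 Nodal pathway gene was called higher, against 1.08% of tested genes, and 3 were called lower. Leaving out any 1 library of clone 4, or vehicle clone 8 replicate 1, left 0 Nodal genes called. Of the Wnt genes edgeR called 0, with 1 higher and 5 lower at an unadjusted p under 0.05, against 22.7% of tested genes. DESeq2 called 1 higher and 1 lower, and without 4OHT clone 8 replicate 1 edgeR called 1 higher and 2 lower.

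**Figure D4:**
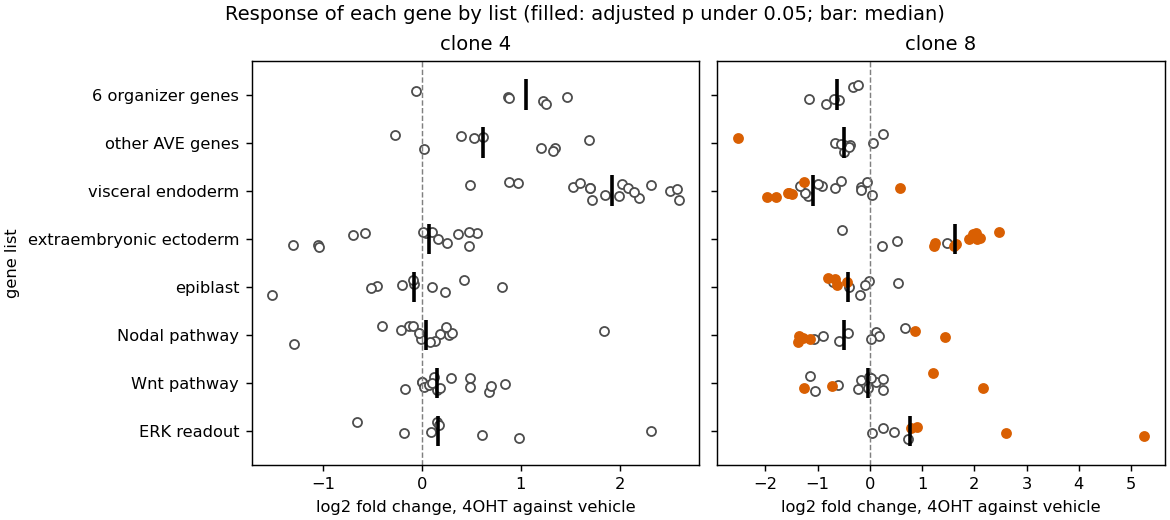
Log2 fold change of 4OHT against vehicle for each gene of 8 lists, in clone 4 (left) and clone 8 (right, with a wider axis); filled points passed an edgeR adjusted p under 0.05 and bars are list medians. The 6 AVE genes have a median of 1.05 in clone 4 and -0.64 in clone 8, between that of the visceral endoderm list and 0 in both panels.

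Other marker lists were read in the same fits. In clone 8, 10 of 14 extraembryonic ectoderm genes rose (median 1.63) and 0 fell, 4 of 10 epiblast genes fell (median -0.42) and 0 rose, and 4 of 8 ERK readout genes rose (median 0.77), where 8% of tested genes rose and 8.6% fell. In a fit of the 4 libraries of clone 8 alone, edgeR called 0 of each list and 0 of all tested genes. The calls of these lists also depended on single libraries of clone 8, as did those of all genes, as given below. In clone 4 edgeR called 0 of each list, with medians of 0.07 for extraembryonic ectoderm, -0.08 for epiblast and 0.16 for ERK readout. At an unadjusted p under 0.05 there, 4 extraembryonic ectoderm genes were lower, 1 epiblast gene was higher and 3 were lower, and 3 ERK readout genes were higher. Of all tested genes, 9.9% had such a p in either direction. DESeq2 called 2 extraembryonic ectoderm genes lower, 1 epiblast gene lower and 2 ERK readout genes higher in clone 4. The part of these tissues in the values of the AVE genes was not tested.

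For each gene the 3 genes whose log2 CPM followed it most closely were found by Pearson's r over the 8 libraries, which share depth and group, so r is a description. Cer1 was followed most closely by the secreted Wnt inhibitor gene Sfrp5 (r 0.982), the growth factor gene Fgf10 (0.970) and Hkdc1 (0.969), at mean levels of 18.8, 8.26 and 20.4 CPM. Dkk1 was followed by the apolipoprotein gene Apoa2 (0.966), Gm5868 (0.959) and the forkhead gene Foxa3 (0.956), and Hesx1 by Smim14 (0.969), Slc27a4 (0.967) and Dapk2 (0.960). The nearest genes of the other members were mostly rare transcripts. Those of Hhex, 9030622O22Rik (0.983), Spon2 (0.964) and Prg2 (0.955), had means under 1 CPM, those of Lhx1 were 1010001N08Rik (0.982), Pilrb1 (0.963) and 5730419F03Rik (0.959), and those of Lefty1 were Trpc6 (0.952), Rap1gap2 (0.945) and Yjefn3 (0.938). Among 18320 other genes, Lhx1 ranked 50 (r 0.90), Hesx1 54 and Dkk1 80 in likeness to Cer1. Lefty1 stood apart from the other 5, which ranked between 2905 and 7143 in likeness to it, with r from 0.13 to 0.51.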

How the data were processed

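RNA-seq counts were analysed from 8 libraries in 4 groups of 2. The authors deposited 1 table of raw whole-number counts per Ensembl gene. Per the submitters' processing notes, bcl2fastq 2.19.1, STAR 2.5.3a and the genome build mm10 (GRCm38) were used; the counting program, annotation release and use of strand are not given in the sources used here. Of 52636 identifiers 52403 matched a symbol; positions and transcripts came from GENCODE.

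The counts were fitted with edgeR 4.0.16 in R 4.3.3 (TMM scaling, filterByExpr with a minimum count of 10, glmQLFit and glmQLFTest). An additive fit of clone and treatment gave the comparison over both clones, and a second fit, with 1 mean per group and the spread estimated over all 4, gave the responses within each clone and their difference. P-values were adjusted over all 18321 tested genes by the Benjamini-Hochberg method, with calls at 0.05. A prior count of 2 entered log2 CPM. The clones have separate vehicle libraries. The procedure was tested on simulated counts.

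The 6 members and the gene lists were chosen with earlier results of these data known. From each list up to 4 genes with the highest mean CPM were named, and for each member the 3 genes of highest Pearson r; exceptions are marked. Alternatives were other scalings, filters and thresholds, DESeq2 1.42.0, the visceral endoderm list as a covariate, other model terms and leaving out each library. A further sequence is not reported here.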

Additional observations from a re-analysis of the deposited data

Results flagged for a closer look

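In depth, 4OHT clone 4 replicate 2 was apart from the other 3 4OHT libraries, at 72.5 M counts. It was the 1 value found by Dixon's test among 22 groups of 4 libraries, a test that marks about 1 in 20 groups by chance.

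The responses of Dkk1 and Hesx1 were marked because both 4OHT libraries lay above the vehicle libraries in clone 4 and below them in clone 8. The difference of the responses (clone 8 minus clone 4) was -1.90 on the log2 scale for Dkk1 and -2.42 for Hesx1. Tested directly with edgeR, neither passed, with adjusted p-values of 0.165 and 0.107.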

How the results depend on the processing

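Among the values of the 6 genes under alternatives, 30 changed sign, 18 gained a call and 336 did neither. With the visceral endoderm level as a covariate, the values over both clones became -0.11 for Hhex, -0.17 for Dkk1 and -0.34 for Hesx1. Under the same covariate those within clone 4 became -0.26 for Hhex, -1.04 for Cer1, -1.26 for Dkk1, -0.57 for Lhx1 and -0.57 for Hesx1, and those within clone 8 became 0.72 for Cer1, 0.46 for Dkk1 and 0.93 for Lhx1. The differences between clones became 0.23 for Hhex, 1.76 for Cer1, 0.22 for Lefty1, 1.72 for Dkk1, 1.51 for Lhx1 and 0.38 for Hesx1. Without single libraries the values over both clones ran from -0.15 to 0.45 for Hhex, -0.07 to 0.58 for Cer1, -0.13 to 0.73 for Dkk1 and -0.49 to 0.52 for Hesx1. Within clone 4 Lefty1 ran from -0.75 to 0.40, and within clone 8 Cer1 ran from -0.91 to 0.09 and Lhx1 from -0.80 to 0.19.

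The numbers of genes called moved more. Over both clones, 1 gene was called, against 1337 without the expression filter, 0 with at least 10 counts in every library, 1024 by DESeq2, 726 with the covariate, 1063 in the mean of the within-clone contrasts, 0 at an adjusted p under 0.01 and 0 to 1 without single libraries. Within clone 4, 7 were called, against 728 without the filter, 78 with at least 10 counts in every library, 466 by DESeq2, 0 with the covariate, 220 in its 4 libraries alone, 0 at the stricter threshold and 0 to 267 without single libraries. Within clone 8, 3041 were called, against 964 with the covariate, 0 in its 4 libraries alone, 272 at the stricter threshold and 0 to 3179 without single libraries. For the difference, 519 were called, against 2114 without the filter, 1806 by DESeq2, 0 with the covariate, 0 at the stricter threshold and 0 to 1205 without single libraries. Calls of genes and lists in fits without single libraries are to be read beside these ranges of all genes called. Causes of these shifts were not tested.

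Same-numbered libraries did not deviate together (correlations of -0.0298 to 0.0947), so the numbers name libraries only. With replicate number as a block, the count within clone 4 was 0 in place of 7, and 0 of the 6 genes were called. A group left with 1 library was assumed to vary like the others. Depth limits Hesx1 most, with 56 counts in its lowest library.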

Other observations

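Genes of the primitive streak, which AVE signals restrict in the embryo, were read from a list of 7. In edgeR and in DESeq2 0 of the 7 were called in any comparison. At an unadjusted p under 0.05 in edgeR, 0 differed over both clones, where 16.9% of tested genes did. In clone 4, 1 was higher, against 9.9% of tested genes in either direction. In clone 8, 1 was higher and 1 lower, against 33.2%, and in the difference between clones 2 were lower, against 22.7%. Without the filter on low counts edgeR called 3 over both clones, 1 in clone 4, 2 in clone 8 and 4 in the difference. Over both clones, in clone 4 and in the difference, that setting also called more of all genes, as given above. For clone 8 its share of all genes is not given here. In clone 8 edgeR called 1 lower without vehicle clone 8 replicate 2 or with at least 10 counts required in every library, and 1 higher without 4OHT clone 8 replicate 1; in the difference it called 1 lower without 4OHT clone 8 replicate 2. Their median log2 fold change was -0.03 in clone 4 and 0.43 in clone 8, where it was -0.30 without 4OHT clone 8 replicate 2 and 0.90 without 4OHT clone 8 replicate 1. T, the brachyury gene, stood at 39.6 CPM in 4OHT clone 8 replicate 2 and at 3.34 to 10.3 CPM in the other 7 libraries. Fgf8 stood at 106 CPM in vehicle clone 8 replicate 1 and at 17.0 to 30.0 CPM in the others. Mixl1, a homeobox gene of the streak, was lowest in vehicle clone 4 replicate 2 (7.59 CPM) and 4OHT clone 8 replicate 1 (13.2 CPM). These were also the lowest libraries of Hhex, Cer1, Dkk1, Lhx1 and Hesx1, but not of Lefty1. Mixl1 was highest, at 69.7 CPM, in 4OHT clone 4 replicate 1.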
